A study of Mus musculus with 34 samples.

Results

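The 7 genes described here are the 4 Id genes (Id1, Id2, Id3 and Id4), the myostatin gene Mstn and the inhibitory Smad genes Smad6 and Smad7, in C2C12 cells, an established mouse myoblast line. They were taken by name. Each was measured over every 1 kb bin that overlaps its GRCm38 span with 20 kb on either side, which gave 403 of the 2631630 bins of the autosomes and X. Id1 had 43 bins, Id2 44, Id3 42, Id4 46, Mstn 48, Smad6 110 and Smad7 70. The libraries came from mtChIL-seq, in which a DNA probe carried by an antibody is integrated into the genome near the antibody's target by Tn5 transposase and is then amplified, so that a count marks DNA close to the target. In dual staining, trimethylated histone H3 lysine 4 (H3K4me3) and the insulator protein CTCF were mapped together from 1000 and from 10000 cells. Acetylated histone H3 lysine 27 (H3K27ac) and Pol2S2P, the elongating RNA polymerase II phosphorylated at serine-2 of its tail, were mapped together from 100 and from 1000 cells. Each target and cell number of the dual stainings had 3 libraries, 24 in all. Single staining gave 2 libraries of CTCF from 10000 cells and 2 of Pol2S2P from 1000 cells. All 28 libraries came from the same line, and their labels give no treatment. The labels do not say whether replicates were separate cultures, so tests measure only the spread between these libraries.

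Id proteins are helix-loop-helix proteins with no DNA-binding region. They bind the E proteins that myogenic factors such as MyoD need as partners and so hold back muscle differentiation, and Id1, Id2 and Id3 are well-known targets of bone morphogenetic protein (BMP) signalling. Myostatin is a secreted ligand of the transforming growth factor beta (TGF-beta) family that limits muscle mass. Smad6 and Smad7 are intracellular inhibitors that block the receptors and Smads of the same pathway, and both genes are induced by it. H3K4me3 and H3K27ac mark active promoters, the latter also enhancers, and Pol2S2P lies over transcribed gene bodies.

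The promoters of Id2, Id4 and Mstn differ in sequence. H3K4me3 at these genes is described below, and whether it is linked to the sequence was not tested. Each sequence is the 250 bases upstream of the start in RefSeq (GRCm38.p6), 5′ to 3′ on the gene's strand, with CG dinucleotides in capitals.
Id2: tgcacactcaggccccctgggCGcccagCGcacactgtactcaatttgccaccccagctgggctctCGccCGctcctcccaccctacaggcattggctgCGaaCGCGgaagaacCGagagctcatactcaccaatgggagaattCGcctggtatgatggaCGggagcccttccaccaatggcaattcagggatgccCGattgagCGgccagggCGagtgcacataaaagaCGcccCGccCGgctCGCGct
Id4: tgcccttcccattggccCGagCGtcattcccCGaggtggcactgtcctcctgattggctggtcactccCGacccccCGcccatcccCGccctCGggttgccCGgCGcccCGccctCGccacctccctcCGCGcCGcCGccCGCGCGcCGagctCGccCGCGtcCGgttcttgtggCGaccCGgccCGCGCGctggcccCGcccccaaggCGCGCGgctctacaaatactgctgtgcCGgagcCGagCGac
Mstn: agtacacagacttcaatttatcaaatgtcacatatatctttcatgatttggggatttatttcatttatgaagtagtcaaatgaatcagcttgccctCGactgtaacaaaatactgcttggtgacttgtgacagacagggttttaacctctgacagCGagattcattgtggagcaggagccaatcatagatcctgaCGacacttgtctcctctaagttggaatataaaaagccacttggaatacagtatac
The Id2 promoter lies at chr12:25096093-25096342 on the minus strand, that of Id4 at chr13:48260866-48261115 on the plus strand and that of Mstn at chr1:53061390-53061639 on the plus strand. Of the 7 genes 5 were matched, and 250 such bases were read for 21263 promoters, with a median of 10 CG dinucleotides and 55.6% G+C. Id2 and Id3 each had 18 CG dinucleotides and 62.8% G+C. Smad6 had 27 and 66.8%. Id4 was the richest, with 35 and 75.6%, and Mstn was poor, with 3 and 38.4%. Among 6 motifs searched on both strands, the TATA motif TATAAA was found once among these 5 promoters, in Mstn at base -29, and in 11.6% of all promoters. The E-box CANNTG, the kind of site that myogenic factors bind, was found 4 times in Mstn and once in Id2 (62.8% of all promoters had at least 1). CCAAT was found 3 times in Id2, 2 times in Id4 and once in Mstn (35.4% of all promoters). The CTCF core AGGNGGC was found 2 times in Id4 and once each in Id2 and Smad6 (28.7%). The Smad-binding letters CAGAC were found 2 times each in Id3 and Mstn (40.9%), and GGCGCC, a letter run of BMP-responsive sites, once each in Id2 and Id4 (12.3%). Such matches describe letters only.

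Library sizes ran from 719766 to 6653298 counts, the lowest being an H3K4me3 library from 1000 cells. Values are given as relative levels, the count density divided by the mean over all bins, so that 1 is the genome mean. Starts are the bins within 1 kb of a transcription start. No strand was used for Id1 and Smad7, which were read at both the lower and the upper end of their coordinates. Both ends of Id1 share a bin, and counts of starts below take each end as a separate start. Of the 28328 starts and gene ends, the median relative level of H3K4me3 from 10000 cells was 1.57. Over the same starts, markers of myoblasts had a median H3K4me3 of 14.8 from 10000 cells and those of fibroblasts and mesenchyme 7.0, against 0.556 for blood, 1.26 for liver, 0.305 for neurons and 0.614 for adipocytes. Among the myoblast markers Vim had 86.4 and Myf5 42.8, whereas Myod1 had 1.76 and Pax7 0.296 (Myod1 had 9.69 in CTCF). Each marker was read at its start or gene end with the most counts over all libraries, which need not be its promoter. A count of a target near a gene is not a measure of its transcript.

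Id1 (chr2:152736251-152737410) carried high H3K4me3 over the whole gene, one of the 3 Id genes with signal far above the genome mean. At its upper end the relative levels in the 3 libraries from 10000 cells were 49.5, 52.9 and 53.3, and at its lower end 39.6, 33.8 and 41.2. The 1000-cell libraries gave 80.4, 51.9 and 65.0 at the upper end. Both ends stood above at least 93.7% of all starts from 10000 cells. The highest bin lay 1.63 kb past the lower end, at 78.0 ± 11.3 (SD, n = 3) from 10000 cells and 95.2 ± 25.4 (SD, n = 3) from 1000 cells. Bins at 10 times the genome mean or more ran unbroken over 6 kb in both.

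Id2 (chr12:25093799-25096092, minus strand) had the highest mean H3K4me3 of the 7 genes at its start from 10000 cells. Its 3 libraries gave 79.9, 50.7 and 56.9, a range that overlapped that of the upper end of Id1. From 1000 cells the levels were 34.1, 43.3 and 22.5, all below the 10000-cell libraries. The highest bin, 0.69 kb into the gene, was at 94.3 ± 21.5 (SD, n = 3) from 10000 cells and 47.0 ± 15.4 (SD, n = 3) from 1000 cells. The signal was one-sided: from 10000 cells the 20 kb upstream averaged 7.12 ± 0.826 (SD, n = 3) and the 20 kb downstream 1.09 ± 0.249 (SD, n = 3). Bins at 10 times the genome mean or more ran over 9 kb from 10000 cells and over 5 kb from 1000 cells.

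Id3 (chr4:136143822-136145392, plus strand) lay well below Id1 and Id2 in H3K4me3 from 10000 cells. Its start had 15.5, 15.6 and 23.0 there, with no overlap with either, and 24.4, 27.3 and 25 from 1000 cells. The 1000-cell order was therefore different: Id3 lay above all 3 of its own 10000-cell libraries, and its range overlapped that of Id2.

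Id4 (chr13:48261116-48266028, plus strand), the gene with the most CG-rich of these promoters, had next to no H3K4me3. Its start held 0 counts in all 3 libraries from 1000 cells, which together allow a level of up to 0.852 (3 counts, counting error only). From 10000 cells it held 1 count in all, giving 0, 0.444 and 0. Only 10.3% of all starts lay lower there. In the whole window of 46 bins there were 12 counts of H3K4me3 from 1000 cells, with 37 bins at 0, and 32 counts from 10000 cells.

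Mstn (chr1:53061640-53068079, plus strand) was also low. The start had 1.86, 0.444 and 0 in H3K4me3 from 10000 cells and 1.22, 1.33 and 2.5 from 1000 cells, 4 and 6 counts in all. Its mean lay above 36.9% of all starts from 10000 cells and above 50.9% from 1000 cells. Both of its ranges overlapped that of the upper end of Smad7, which from 10000 cells had 1.24, 3.11 and 1.82. No bin of Id4 or Mstn reached 10 times the genome mean in the group means of any target.

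Smad6 (chr9:63953076-64022085, minus strand) and Smad7 (chr18:75367365-75395935), the inhibitory pair, differed in level and in extent. The Smad6 start had 15.5, 16.9 and 15.7 in H3K4me3 from 10000 cells, within the range of Id3, and 12.2, 10.7 and 4.16 from 1000 cells. Its gene body of 70 bins averaged 1.60 ± 0.376 (SD, n = 3), and the longest run of bins at 10 times the genome mean or more was 2 kb, at the start. The lower end of Smad7 had 59.4, 40.4 and 41.8 from 10000 cells and 46.3, 47.3 and 45.8 from 1000 cells, so that the 2 Smad genes did not overlap at either cell number. At Smad7, bins at 10 times the genome mean or more ran over 13 kb from 10000 cells and 14 kb from 1000 cells, the longest such runs of the 7 genes. The highest bin of all 403 in H3K4me3 from 10000 cells was here, 3.83 kb past the lower end, at 107 ± 17.1 (SD, n = 3).

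**Figure D1:**
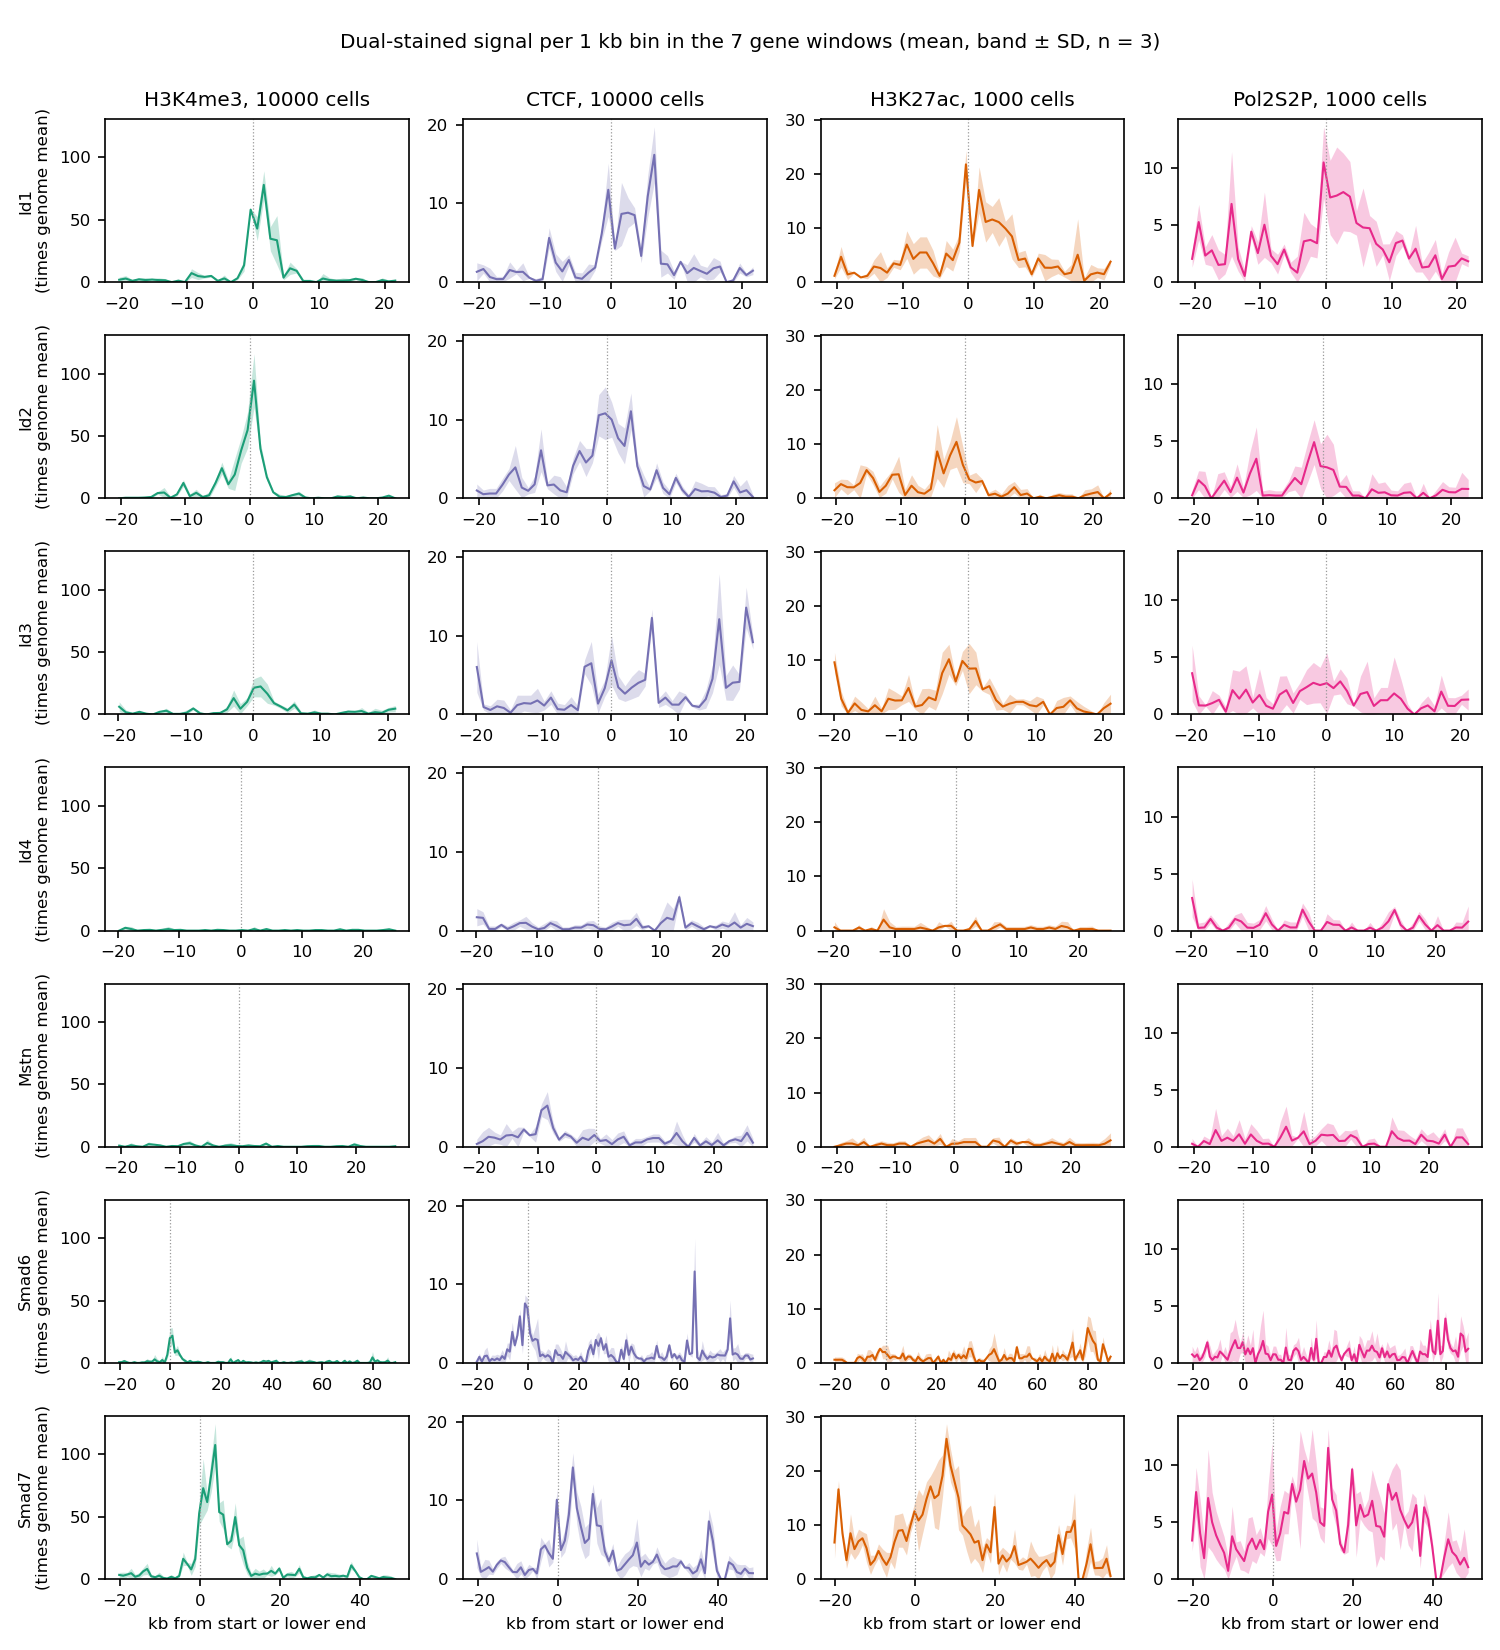
Relative level (times the genome mean, y axis, 1 scale per target) in each 1 kb bin against distance in kb from the start, or from the lower end for Id1 and Smad7, for the 7 genes (rows) and 4 dual-stained targets (columns); lines are means and bands ± SD of 3 libraries. H3K4me3 peaks at 78.0 in Id1, 94.3 in Id2 and 107 in Smad7, while no CTCF bin of Id4 or Mstn exceeds 5.23.

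**Figure D2:**
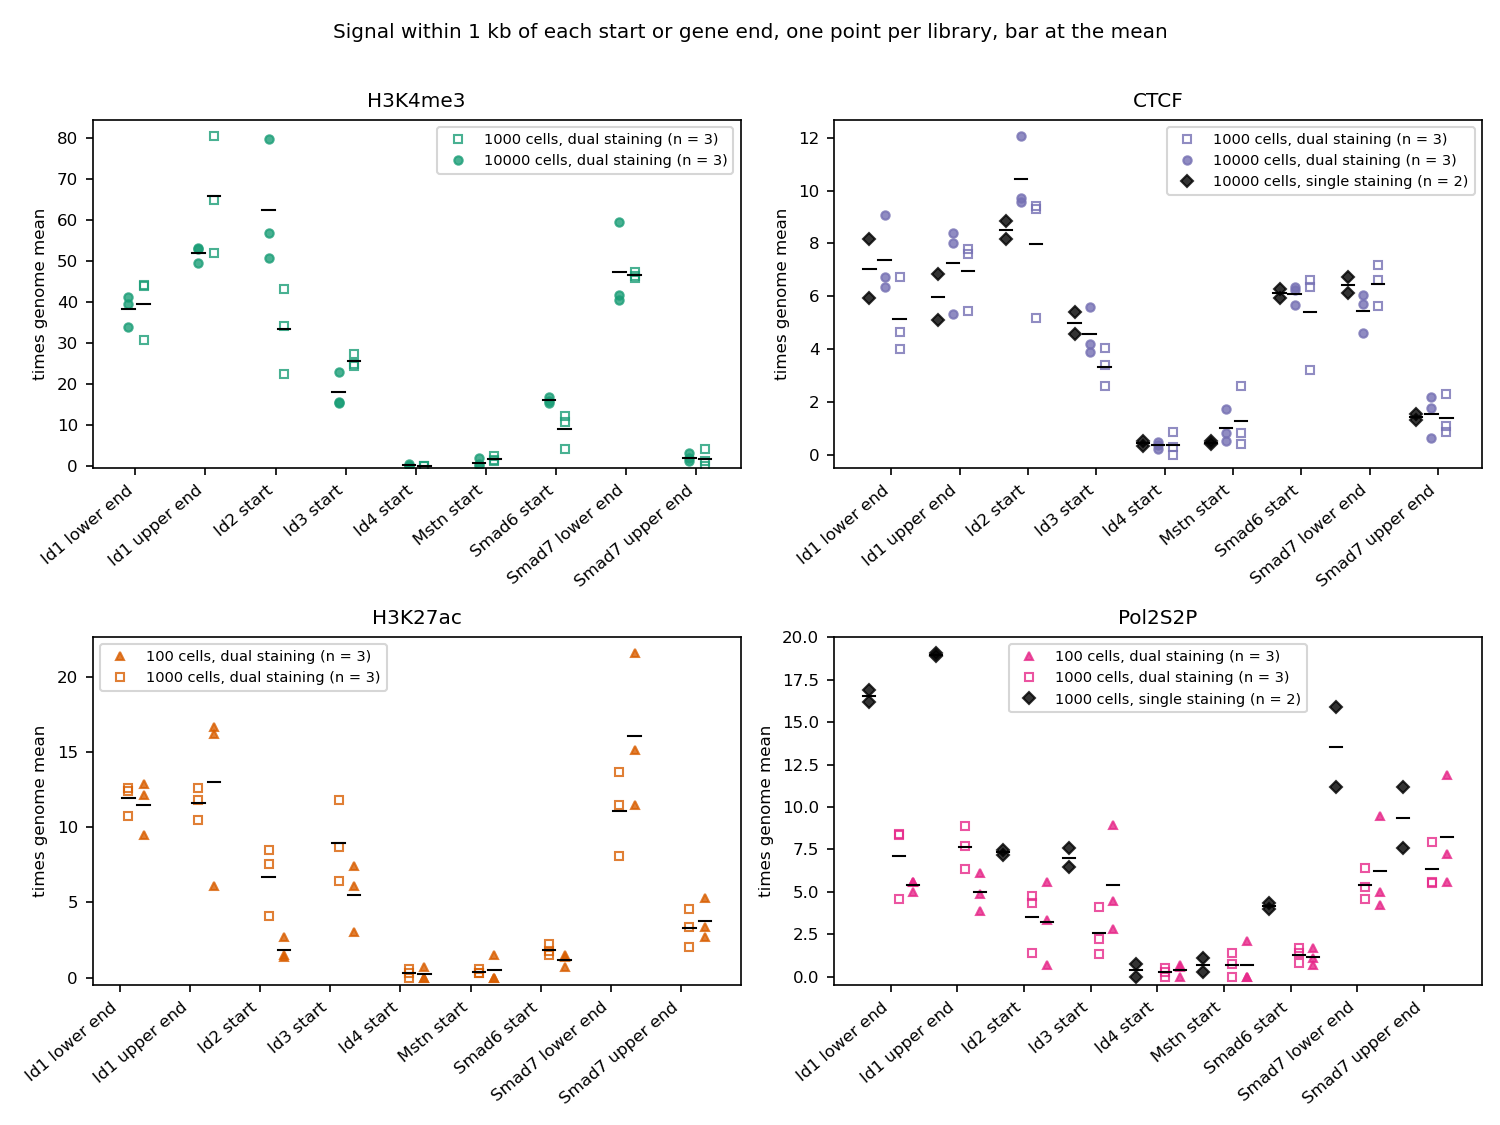
Relative level at each start or gene end in every library (points), by target, cell number and staining, on the axis each panel labels. In H3K4me3 from 10000 cells Id2, Id1 and the lower end of Smad7 lie between 33.8 and 79.9, Id3 and Smad6 between 15.5 and 23.0, and Id4 and Mstn at 1.86 or below.

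The order of the H3K4me3 levels from 10000 cells was Id2, Id1 (upper end), Smad7 (lower end), Id1 (lower end), Id3, Smad6, Smad7 (upper end), Mstn and Id4. Ranges of neighbours overlapped except at 2 steps, between the lower end of Id1 and Id3 and between Smad6 and the upper end of Smad7. From 1000 cells the order began with the upper end of Id1, then Smad7, the lower end of Id1, Id2 and Id3. At 10000 cells the levels therefore fell into a high, a middle and a low class, with only Id3 and Smad6 in the middle class. The low class held Id4, Mstn and the upper end of Smad7, which at 2.06 lay above the median of all starts, 1.57.

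CTCF from 10000 cells had a lower mean than H3K4me3 at each start or gene end other than those of Id4 (0.357 against 0.148) and Mstn (1.03 against 0.767). From 10000 cells Id2 had 9.57, 9.71 and 12.1, above all others. The lower end of Id1 had 6.74, 6.36 and 9.06, Smad6 5.67, 6.36 and 6.26, the lower end of Smad7 4.61, 5.69 and 6.04, and Id3 3.90, 4.18 and 5.61. These 4 overlapped in sequence. Mstn had 0.532, 0.837 and 1.73 and Id4 0.354, 0.502 and 0.216, below the median of all starts, 1.71, but for 1 Mstn library.

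At the starts, H3K4me3 was compared with CTCF of the same staining. The fit, edgeR's quasi-likelihood test with Benjamini-Hochberg adjustment over all 12384 starts that passed the filter, asks where the 2 targets of 1 staining differ. From 10000 cells all 6 starts tested were higher in H3K4me3, beside 83.7% of all starts, so that the count says little about these genes; Id4, Mstn and the upper end of Smad7 had too few counts to be tested. The median log2 difference over all starts was 1.92, and scaling by TMM or DESeq2 removed that shift. With those scalings 49.1% and 46.0% of the calls were higher, against 92.6% without. Differences are therefore also given relative to the median.

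The lower end of Smad7 had the largest difference of the 7 genes at 10000 cells, a log2 difference of 3.09 ± 0.168 (SE; edgeR adjusted p = 2.66e-49), and 1.19 with TMM. The upper end of Id1 had 2.85 ± 0.155 (SE), Id2 2.56 ± 0.142 (SE) and the lower end of Id1 2.37 ± 0.166 (SE), all above the median, and 0.94, 0.65 and 0.47 with TMM (the last 0.45 with DESeq2, adjusted p = 0.0672). Id3, at 1.98 ± 0.230 (SE), lay at the median: 0.08 with TMM and 0.06 with DESeq2, neither called. Smad6 was the one with a relative deficit. Its log2 difference of 1.40 ± 0.219 (SE; edgeR adjusted p = 9.96e-10) lay 0.52 below the median of all starts and turned to -0.50 with TMM (adjusted p = 0.0314) and -0.52 with DESeq2 (adjusted p = 0.107).

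From 1000 cells 5 of 6 starts were higher in H3K4me3, beside 87.3% of 9949 starts, with a median of 2.13 over all of them. Id3 and the lower end of Id1 passed the filter on low counts through H3K4me3, which favours that direction. Of the calls over all starts 95.5% were higher, and 46.4% with TMM and 41.5% with DESeq2. Id1 had 3.20 ± 0.211 (SE) at its upper and 2.88 ± 0.255 (SE) at its lower end, Id3 2.92 ± 0.305 (SE) and the lower end of Smad7 2.85 ± 0.227 (SE). Id2, at 2.1 ± 0.250 (SE), was at the median here, with -0.01 under TMM and -0.03 under DESeq2. Smad6, at 0.74 ± 0.386 (SE; edgeR adjusted p = 0.0648), did not pass, and turned to -1.36 with TMM (adjusted p = 0.00134) and -1.40 with DESeq2 (adjusted p = 0.0116). It passed without replicate 3 of H3K4me3 (1.09, adjusted p = 0.0124), without replicate 1 of CTCF (0.85, adjusted p = 0.0478) and without replicate 3 of CTCF (0.95, adjusted p = 0.042). Id3 kept 0.82 with TMM (adjusted p = 0.0279) and 0.81 with DESeq2 (adjusted p = 0.0975). The difference between targets at 10000 cells was set against that at 1000 cells by an interaction term, which called none of 6 starts, beside 0.0% of 11886 starts. By edgeR 1 of them, Id3, had an unadjusted p under 0.05 (-0.96 ± 0.393, SE; adjusted p = 0.644). TMM and DESeq2 called none either.

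**Figure D3:**
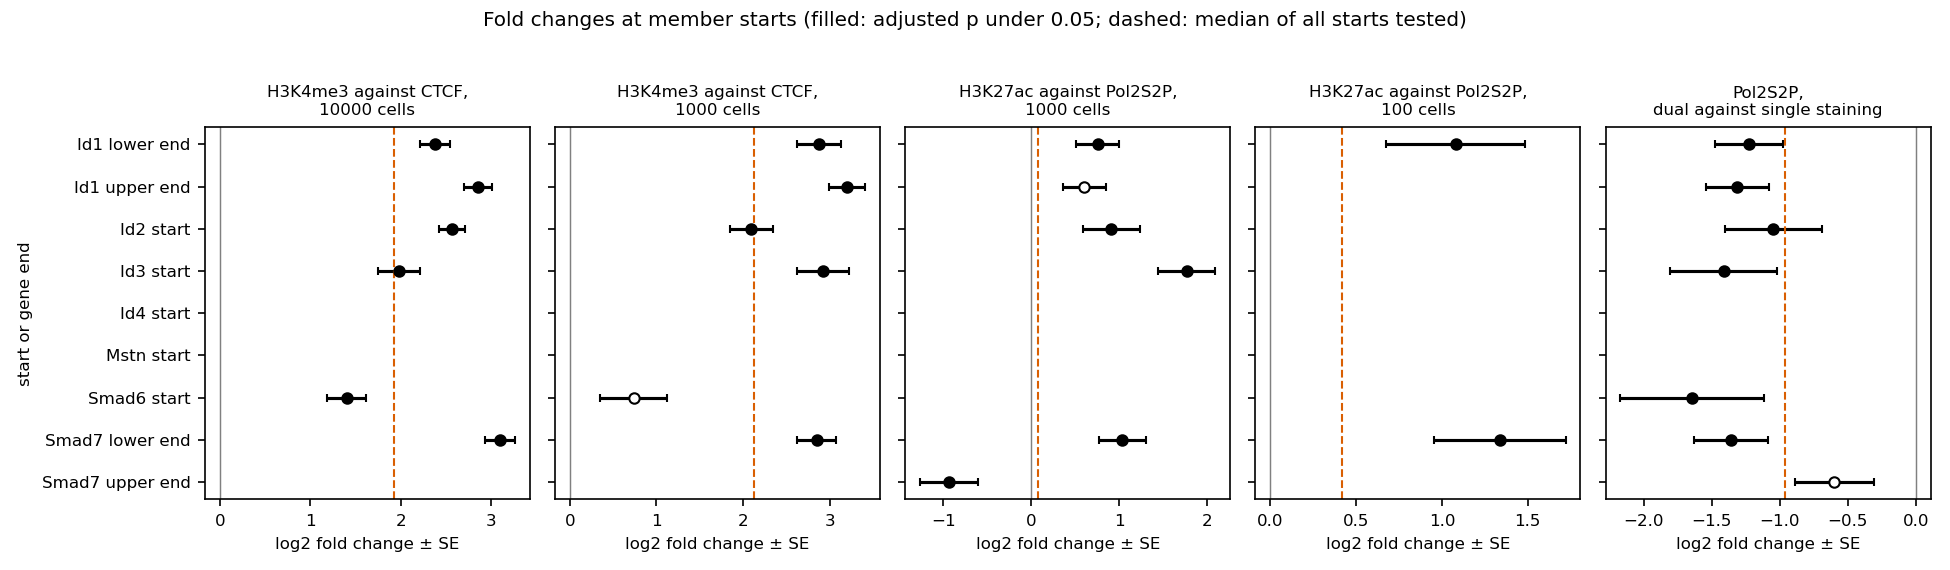
log2 differences ± SE (x axis) at the starts and gene ends (y axis) in 5 comparisons, filled where the edgeR adjusted p was under 0.05; the dashed line is the median over all starts tested, and empty rows were too low to be tested. In H3K4me3 against CTCF the Smad6 point lies left of the median at both cell numbers (1.40 against 1.92 and 0.74 against 2.13), a side it keeps as a negative difference with TMM.

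Per 1 kb bin, 42 member bins passed the filter on low counts from 10000 cells, and a bin that passed through a high H3K4me3 count had to lean that way. Of these 36 were higher in H3K4me3, beside 53.9% of 44023 bins, and 3 were higher in CTCF, beside 29.4%. TMM gave 28 and 5 and DESeq2 20 and 5, and over all bins the share of calls that were higher went from 64.7% to 50.1% and 41.6%. By gene, 15 of 16 tested bins of Smad7, 9 of 10 of Id2, 6 of 8 of Id1, 4 of 6 of Id3 and 2 of 2 of Smad6 were higher in H3K4me3. The largest differences were in Smad7, at 0.83, 1.83 and 2.83 kb past its lower end (4.21 ± 0.265, 3.58 ± 0.252 and 3.31 ± 0.208, SE). At the first of these, H3K4me3 was 72.8 ± 23.6 (SD, n = 3) and CTCF 3.69 ± 0.945 (SD, n = 3).

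The 3 bins with more CTCF lay 1 in each of Id1, Id2 and Id3 and off the promoter in each. At Id3, 20.12 kb past the start (chr4:136163446-136164445), CTCF was 13.6 ± 2.59 and H3K4me3 3.77 ± 1.81 (SD, n = 3), a log2 difference of -1.80 ± 0.472 (SE; edgeR adjusted p = 0.000335). At Id2, 3.69 kb past the start (chr12:25091901-25092900), CTCF was 11.1 ± 2.32 and H3K4me3 4.83 ± 0.969 (SD, n = 3), a difference of -1.14 ± 0.458 (SE; adjusted p = 0.0179). The Id2 bin was not called without H3K4me3 replicate 1 (-1.0, adjusted p = 0.0806) or 2 (-1.23, adjusted p = 0.0599). At Id1, 6.63 kb past the lower end (chr2:152742381-152743380), CTCF was 16.2 ± 3.56, the highest CTCF bin of all 403, and H3K4me3 9.07 ± 1.71 (SD, n = 3), a difference of -0.77 ± 0.352 (SE; adjusted p = 0.0374). This call ended without any 1 of the H3K4me3 libraries (-0.78, -0.93 and -0.65; adjusted p = 0.0834, 0.0617 and 0.142). Keeping every bin with at least 10 counts ended both of these calls too (adjusted p = 0.105 and 0.159). With TMM all 3 were larger, at -2.74, -2.09 and -1.73.

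**Figure D4:**
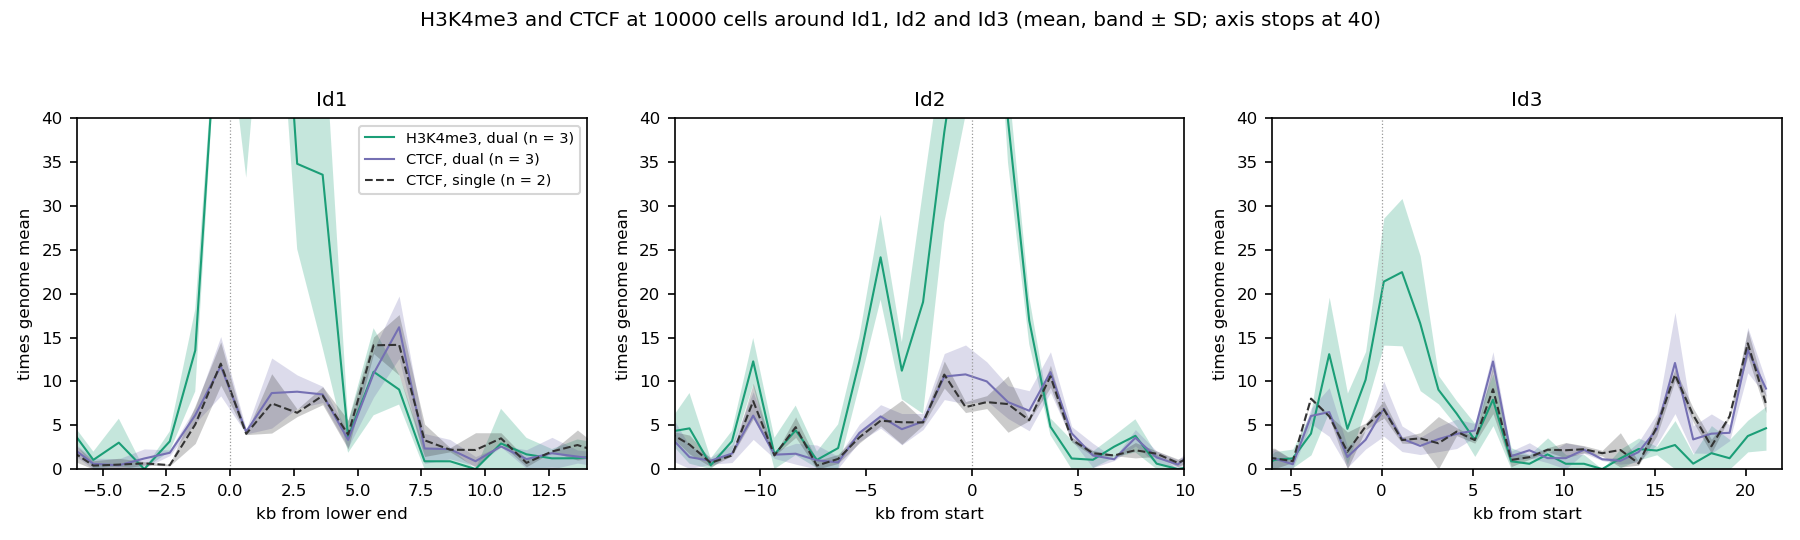
Relative level (times the genome mean, y axis stopped at 40, so that H3K4me3 runs off the scale at Id1 and Id2) against distance in kb for H3K4me3 and CTCF of dual staining (n = 3) and CTCF of single staining (n = 2), all from 10000 cells; lines are means and bands ± SD. CTCF stands above H3K4me3 at 6.63 kb in Id1 (16.2 against 9.07), 3.69 kb in Id2 (11.1 against 4.83) and 20.12 kb in Id3 (13.6 against 3.77); single-stained CTCF was 14.2 and 14.3 at the Id1 and Id3 bins.

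The windows of Id4 and Mstn, both low in H3K4me3, held no high CTCF bin either. In the Mstn window its highest bin, upstream of the start at -8.35 kb, was at 5.23 ± 1.78 (SD, n = 3) in dual staining from 10000 cells, 5.45 ± 2.98 (SD, n = 3) from 1000 cells and 5.12 ± 0.0295 (SD, n = 2) in single staining, a level that 2.37% of all bins reached in dual staining from 10000 cells. In the Id4 window the highest bin, 13.19 kb past the start, was at 4.26 ± 0.463, 4.47 ± 1.78 and 4.75 ± 1.67 (SD; n = 3, 3 and 2), reached by 3.16% of all bins. The same bin was thus the highest in all 3 CTCF groups of each gene. In Smad6 the highest CTCF bin was 65.82 kb past the start, inside the gene near its far end, at 11.6 ± 4.16 (SD, n = 3) from 10000 cells, 7.98 ± 2.09 (SD, n = 3) from 1000 cells and 8.60 ± 1.54 (SD, n = 2) in single staining.

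From 1000 cells all 21 member bins tested were higher in H3K4me3, beside 71.9% of 16589 bins. Here too, a bin that passed the filter through a high H3K4me3 count had to lean that way, so the count of 21 says little. Keeping every bin with at least 10 counts gave 29 higher and 2 lower. TMM left 10 and DESeq2 3 of the 21, and over all bins the share of calls that were higher went from 78.7% to 43.8% and 21.5%. The largest was in Id1, 0.63 kb past its lower end (4.31 ± 0.431, SE), followed by Smad7 at 2.83 kb (4.05 ± 0.317, SE) and 0.83 kb (4.01 ± 0.367, SE). By gene there were 12 in Smad7, 4 in Id1, 3 in Id2 and 2 in Id3, and none of Smad6 passed the filter.

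Summed over whole windows, the same 2 targets separated the genes in both directions. From 10000 cells 4 of the 7 windows were higher in H3K4me3, beside 45.8% of 20439 gene windows, and 2 were lower, beside 34.1%. Smad7 led at 2.08 ± 0.0613 (SE), with Id2 at 1.53 ± 0.0854 (SE) and Id1 at 1.47 ± 0.0868 (SE). Id3 was called at 0.29 ± 0.104 (SE; edgeR adjusted p = 0.00718), but not without H3K4me3 replicate 3 (0.24, adjusted p = 0.052) or CTCF replicate 1 (0.23, adjusted p = 0.0522), nor with TMM (0.08). The windows of Mstn and Id4 held more CTCF than H3K4me3, at -0.72 ± 0.204 (SE; adjusted p = 0.000596) and -0.92 ± 0.273 (SE; adjusted p = 0.00105). CTCF itself was near or below the genome mean there, at 1.12 in the Mstn and 0.728 in the Id4 window. The Mstn difference shrank to -0.28 with 5 kb flanks (adjusted p = 0.457), a setting that leaves out the upstream CTCF bin at -8.35 kb. Whether that bin made the difference was not tested. With 5 kb flanks 6 windows were tested and 0 were lower, so the Id4 call was lost as well. Smad6, the longest window, was not called (-0.05 ± 0.105, SE; adjusted p = 0.683), but was lower with TMM (-0.25, adjusted p = 0.0196). The median over all windows was 0.10.

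From 1000 cells Smad7 again came first, but Id1 and Id2 changed places, with 4 higher beside 42.4% of 19579 windows and 3 lower beside 29.3%. Smad7 had 2.09 ± 0.0888 (SE), Id1 1.71 ± 0.125 (SE), Id2 0.97 ± 0.142 (SE) and Id3 0.54 ± 0.148 (SE). Id4 had -1.76 ± 0.433 (SE; edgeR adjusted p = 0.000107) on 12 counts of H3K4me3. Mstn had -0.67 ± 0.300 (SE; adjusted p = 0.0371) and Smad6 -0.38 ± 0.163 (SE; adjusted p = 0.029). The Mstn call ended without H3K4me3 replicate 2 (-0.48, adjusted p = 0.225) or 3 (-0.74, adjusted p = 0.0566) and without CTCF replicate 1 (-0.66, adjusted p = 0.0523) or 3 (-0.60, adjusted p = 0.0984). That of Smad6 ended without H3K4me3 replicate 1 (-0.31, adjusted p = 0.105) or 3 (-0.36, adjusted p = 0.0885) or CTCF replicate 2 (-0.35, adjusted p = 0.0807). With 5 kb flanks 5 windows were tested, of which 4 were higher and 1 was lower.

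H3K27ac was high at Id1 and Smad7 and low at Id4 and Mstn, as H3K4me3 was, but its order between them differed. Id3 had a higher mean than Id2, and Smad6 lay near the median of all starts. From 1000 cells the lower end of Id1 had 12.6, 10.8 and 12.4, its upper end 12.6, 10.5 and 11.8 and the lower end of Smad7 8.10, 13.7 and 11.5. Id3 had 8.66, 6.39 and 11.8 and Id2 7.54, 4.07 and 8.45. Each of these overlapped the next. The Smad6 start had 2.24, 1.74 and 1.51, above 60.1% of all starts, whose median was 1.26. Its H3K4me3 lay above 69.2% of all starts from 1000 cells and above 75.1% from 10000. Id4 (0, 0.581 and 0.302) and Mstn (0.559, 0.291 and 0.302) lay below that median in every library.

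From 100 cells the H3K27ac levels of the lower end of Smad7 were 21.6, 11.5 and 15.1, and those of the lower end of Id1 12.1, 9.45 and 12.9. Id3 had 7.41, 6.08 and 3.03. The Id2 start had 2.69, 1.35 and 1.51, all below its 3 libraries from 1000 cells. Id2 rested on 8 counts there and was too low to be tested between cell numbers.

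Pol2S2P in dual staining was lower and noisier. From 1000 cells the upper end of Id1 had 7.70, 8.88 and 6.33, its lower end 4.57, 8.33 and 8.43, the upper end of Smad7 5.53, 5.55 and 7.91 and its lower end 4.57, 6.39 and 5.27. Id2 had 4.33, 1.39 and 4.74 and Id3 4.09, 2.22 and 1.32, overlapping those of Smad6 at 1.68, 1.39 and 0.791. Only the 2 ends of Id1 and of Smad7 exceeded the median of all starts, 1.46, at least 3-fold in every library.

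At the starts, H3K27ac was compared with Pol2S2P of the same 1000-cell staining, where the median over all 8483 starts was 0.07. Of 6 starts tested 4 were higher in H3K27ac, beside 12.6% of all starts, and 1 was lower, beside 8.96%. Id2 and Id3 had enough counts for the filter in every library only in H3K27ac, and the upper end of Smad7 only in Pol2S2P. That favours the direction each of them took. Both ends of Id1 and the lower end of Smad7 had enough in both targets. Id3 had the largest difference, 1.77 ± 0.324 (SE; edgeR adjusted p = 2.24e-06), and kept 1.69 with TMM. The lower end of Smad7 had 1.03 ± 0.266 (SE; adjusted p = 0.00128). Id2, at 0.91 ± 0.321 (SE; adjusted p = 0.0255), had ranges that overlapped between the targets, and the lower end of Id1 had 0.76 ± 0.246 (SE; adjusted p = 0.0147). The upper end of Id1, at 0.60 ± 0.243 (SE; adjusted p = 0.0573), did not pass, though it did over bins within 2.5 kb (0.77, adjusted p = 0.000248). The upper end of Smad7 went the other way, with more Pol2S2P than H3K27ac (-0.93 ± 0.331, SE; adjusted p = 0.0266).

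Several of these calls rested on single libraries. The Id2 call ended without H3K27ac replicate 1 (0.81, adjusted p = 0.114) or 3 (0.72, adjusted p = 0.190) or Pol2S2P replicate 2 (0.56, adjusted p = 0.288), and TMM gave 0.83 (adjusted p = 0.0501). That of the lower end of Id1 ended without H3K27ac replicate 1 (0.71, adjusted p = 0.0545) or 3 (0.73, adjusted p = 0.058) or Pol2S2P replicate 1 (0.50, adjusted p = 0.201). The upper end of Smad7 was not called without H3K27ac replicate 1 (-0.95, adjusted p = 0.0687) or 2 (-0.68, adjusted p = 0.204) or Pol2S2P replicate 3 (-0.74, adjusted p = 0.178). DESeq2 left the calls of Id3 and the lower end of Smad7.

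From 100 cells only both lower ends could be tested among the members, and both were higher in H3K27ac, beside 24.4% of 1564 starts. Both passed the filter on low counts through their H3K27ac libraries, which favours that direction, so the count of 2 says little. Smad7 had 1.34 ± 0.385 (SE; edgeR adjusted p = 0.0087) and Id1 1.08 ± 0.406 (SE; adjusted p = 0.0395). Both calls were lost with TMM (0.92 and 0.67, adjusted p = 0.0824 and 0.254), which removed a median of 0.42 and moved the share of calls that were higher from 75.9% to 44.7% (31.0% with DESeq2). Without H3K27ac replicate 1 Smad7 was not called (1.06, adjusted p = 0.0998), and Id1 was not called without any 1 of the 6 libraries (1.00 to 1.20, adjusted p from 0.0641 to 0.130). The test of whether this difference changed with cell number called none of 6 starts, beside 0.0% of 7715. Of these, 2 had an unadjusted p under 0.05 by edgeR: Id3 (1.76 ± 0.597, SE; adjusted p = 0.791) and Id2 (1.74 ± 0.757, SE; adjusted p = 0.959). TMM and DESeq2 called none.

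Smad7 had the longest stretch of H3K27ac and of single-stained Pol2S2P among the 7 genes. H3K27ac from 1000 cells averaged 9.96 ± 0.764 (SD, n = 3) over the 30 bins of the gene and 6.65 ± 0.473 over the 20 kb below it, and its highest bin, 7.83 kb past the lower end, was at 25.9 ± 2.79. From 100 cells the gene averaged 11.1 ± 1.25 (SD, n = 3). Bins at 10 times the genome mean or more ran over 12 kb from 1000 cells and 7 kb from 100 cells. Pol2S2P averaged 6.31 ± 0.356 (SD, n = 3) over the gene in dual staining and 12.3 ± 1.23 (SD, n = 2) in single staining, where 24 bins of the window reached 10 times the genome mean. From 1000 cells the highest dual-stained Pol2S2P bin was 13.83 kb past the lower end (11.5 ± 1.65, SD, n = 3), beyond the H3K4me3 run. The highest single-stained bin was at 10.83 kb (21.3 ± 2.61, SD, n = 2), inside that run. From 100 cells the highest dual-stained Pol2S2P bin lay elsewhere, at 24.83 kb (15.0 ± 2.90, SD, n = 3).

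By bin, 12 of 19 member bins tested from 1000 cells were higher in H3K27ac than in Pol2S2P, 10 of 14 in Smad7 and 2 of 5 in Id1, beside 55.9% of 18663 bins. At either number of cells, a bin that passed the filter through a high H3K27ac count was favoured to lean that way. The largest were in Smad7, at 3.83 kb (1.57 ± 0.361, SE; edgeR adjusted p = 0.000701), 7.83 kb (1.31 ± 0.273, SE; adjusted p = 0.000299) and 2.83 kb (1.30 ± 0.375, SE; adjusted p = 0.00425). A separate bin below the gene, at -19.17 kb and chosen after its values were seen, was also called, with H3K27ac at 16.6 ± 1.63 and Pol2S2P at 7.63 ± 2.16 (SD, n = 3; 1.12 ± 0.341, SE; adjusted p = 0.00596). These bin calls depended on the scaling. TMM and DESeq2 left 1 call each, a bin with more Pol2S2P, and none of the 3 largest (0.65, 0.38 and 0.38 with TMM), and over all bins the share of calls that were higher went from 85.4% to 34.9% and 19.8%. Without replicate 1, 2 or 3 of Pol2S2P the count rose to 20, 22 and 20. From 100 cells 1 bin was tested, 7.83 kb past the lower end of Smad7, and was higher (1.48 ± 0.449, SE; adjusted p = 0.00658), beside 70.8% of 1772 bins. It turned to -0.03 with TMM, and was lost without H3K27ac replicate 1 (1.31, adjusted p = 0.0875) and without Pol2S2P replicate 1 (1.05, adjusted p = 0.100) or 2 (1.30, adjusted p = 0.0663). The share of calls that were higher over all bins was 91.5%, and 21.5% and 0.5% with TMM and DESeq2.

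**Figure D5:**
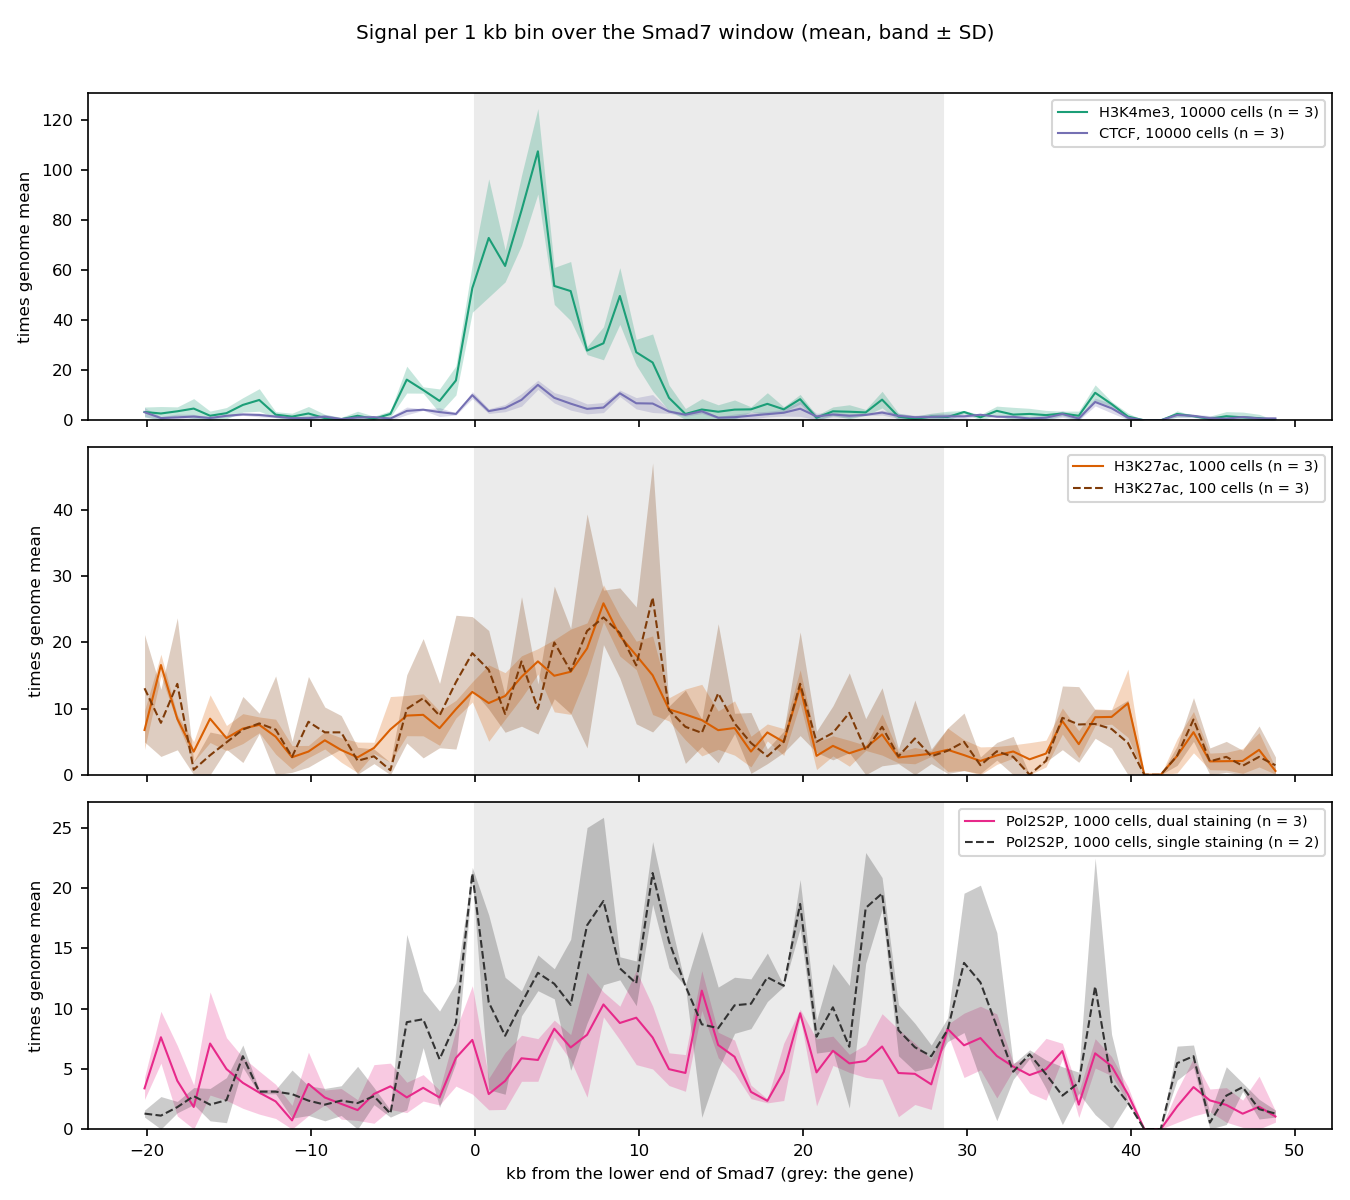
Relative level (times the genome mean, y axis) against distance in kb from the lower end of Smad7 for the 4 targets, with dual-stained groups of 3 libraries and single-stained groups of 2; lines are means and bands ± SD. H3K4me3 from 10000 cells stays at 10 or more for 13 kb, while Pol2S2P from 1000 cells reaches its highest bin at 13.83 kb in dual staining (11.5) and at 10.83 kb in single staining (21.3).

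Over whole windows, 5 of 7 were higher in H3K27ac than in Pol2S2P from 1000 cells, beside 12.4% of 20664 windows. Id2 had 1.11 ± 0.157 (SE), Id3 1.05 ± 0.136 (SE), Smad7 0.62 ± 0.0689 (SE), Id1 0.51 ± 0.0997 (SE) and Smad6 0.37 ± 0.121 (SE; edgeR adjusted p = 0.00538), against a median of -0.25 over all windows. TMM raised each (1.38, 1.32, 0.89, 0.78 and 0.64) and moved the share of all calls that were higher from 22.3% to 50.5% (50.2% with DESeq2). Smad6 was lost without H3K27ac replicate 1 (0.29, adjusted p = 0.0694). Its H3K27ac lay toward the far end: the 20 kb downstream averaged 2.21 ± 0.464 (SD, n = 3) and the gene body 0.971 ± 0.162, and its highest bin, 79.82 kb past the start, was at 6.44 ± 2.27, within the span of the noncoding RNA gene Gm36033. Mstn (-0.14 ± 0.244, SE) and Id4 (-0.38 ± 0.283, SE) were not called.

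From 100 cells 4 windows were higher in H3K27ac, beside 9.6% of 18949 windows. Id2 had 0.90 ± 0.272 (SE), Smad7 0.67 ± 0.110 (SE), Id3 0.61 ± 0.211 (SE; edgeR adjusted p = 0.0167) and Smad6 0.56 ± 0.222 (SE; adjusted p = 0.0391), against a median of -0.29. Id1, at 0.42 ± 0.181 (SE; adjusted p = 0.0546), was not called, but was with TMM and DESeq2 (0.70 in each, adjusted p = 0.00155 and 0.00781), with 5 kb flanks (0.97, adjusted p = 0.00113) and without H3K27ac replicate 2 (0.53, adjusted p = 0.0293). TMM moved the share of all calls that were higher from 23.3% to 55.4%, and DESeq2 to 57.7%. Id3 was lost without H3K27ac replicate 1 (0.48, adjusted p = 0.116) or Pol2S2P replicate 3 (0.52, adjusted p = 0.0724). Smad6 was lost without H3K27ac replicate 2 (0.50, adjusted p = 0.115) or 3 (0.38, adjusted p = 0.226) and without Pol2S2P replicate 1 (0.53, adjusted p = 0.0998) or 3 (0.44, adjusted p = 0.158). With 5 kb flanks Id2, Id3 and Smad6 were not called (0.49, 0.48 and 0.47).

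Between cell numbers, 1 member start was called. H3K4me3 at Id2 was higher from 10000 than from 1000 cells, by 0.85 ± 0.168 (SE; edgeR adjusted p = 0.000792), beside 4.34% of 10249 starts called in either direction. TMM kept it (0.63, adjusted p = 0.0405), and the share of all calls that were higher went from 98.9% to 55.0%. DESeq2 did not keep it (0.68, adjusted p = 0.754; 0.0% of its calls were higher), and it was lost without replicate 3 of the 1000-cell libraries (0.62, adjusted p = 0.079) or replicate 1 of the 10000-cell libraries (0.65, adjusted p = 0.0602). Smad6 had 0.87 ± 0.312 (SE; adjusted p = 0.0839) and Id3 -0.53 ± 0.228 (SE; adjusted p = 0.157), both without overlap between the groups and both not called, though Smad6 was over bins within 2.5 kb (0.90, adjusted p = 0.0295). No start was called for CTCF (0 of 6, beside 0.294% of 12249; 0 had an unadjusted p under 0.05), H3K27ac (0 of 4, beside 0.0% of 4545; 0) or Pol2S2P (0 of 6, beside 0.0% of 5520; 1, Id3 at -1.08 ± 0.493, SE). TMM and DESeq2 called none of these either.

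Dual staining was compared with single staining of the same target at the same number of cells. For CTCF no member start was called (0 of 7, beside 0.0% of 15306 starts; 0 had an unadjusted p under 0.05), and the differences ran from -0.25 ± 0.221 (SE, lower end of Smad7) to 0.28 ± 0.172 (SE, Id2). By bin 0 of 50 were called, beside 0.0956% of 82620 bins, by edgeR, TMM and DESeq2, and 2 had an unadjusted p under 0.05. Both were in Smad7 and were chosen after their values were seen: at 2.83 kb dual CTCF was 8.18 ± 2.51 (SD, n = 3) and single 2.52 ± 0.765 (SD, n = 2), and at 7.83 kb 5.11 ± 2.02 and 11.7 ± 1.46 (adjusted p = 0.0584 and 0.122). The bin 6.63 kb past the lower end of Id1 stayed the highest of its window in single staining, at 14.2 ± 3.45 (SD, n = 2), and so did the bin 20.12 kb past Id3, at 14.3 ± 1.53.

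For Pol2S2P, single staining gave much higher levels at the same starts. The upper end of Id1 had 18.9 and 19.1 in the 2 single-stained libraries, its lower end 16.2 and 16.9, the lower end of Smad7 15.9 and 11.2, Id2 7.46 and 7.20, Id3 6.46 and 7.56, and Smad6 3.98 and 4.32. No dual-stained library of these starts reached its single-stained range, a property that was not counted over all starts. The upper end of Smad7 had 11.2 and 7.56 in single staining, and its ranges overlapped. Its difference, dual against single, was not called (-0.60 ± 0.290, SE; edgeR adjusted p = 0.0653). The other differences were -1.64 ± 0.527 (SE) at Smad6, -1.41 ± 0.392 at Id3, -1.36 ± 0.272 at the lower end of Smad7, -1.31 ± 0.232 and -1.23 ± 0.249 at the 2 ends of Id1 and -1.05 ± 0.359 at Id2. Smad6 and Id3 passed the filter on low counts through their single-stained libraries, which favours a lower level in dual staining. In all 6 of 7 starts were lower in dual staining, beside 59.6% of 12609 starts, whose median was -0.96. With TMM and DESeq2 none was called, and the share of all calls that were higher went from 0.5% to 73.2% and 100.0%, so that relative to other starts none of the 6 passed. Smad6 was lost without single-stained replicate 1 (-1.71, adjusted p = 0.0839) or 2 (-1.59, adjusted p = 0.073), and Id2 without dual-stained replicate 2 (-0.69, adjusted p = 0.0859) or single-stained replicate 1 (-1.02, adjusted p = 0.0879), by edgeR. Id4 (0.746 and 0) and Mstn (0.249 and 1.08) were low in single staining as well.

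By bin, 16 of 40 were lower in dual-stained Pol2S2P, beside 27% of 36611 bins, 10 in Smad7, 5 in Id1 and 1 in Id2. A bin could pass the filter on low counts through the single-stained libraries alone, which favours that direction. The largest were in Id2 at 2.69 kb (-3.16 ± 0.835, SE), Smad7 at 17.83 kb (-2.37 ± 0.623, SE) and Id1 at -1.37 kb (-2.17 ± 0.489, SE). None was called with TMM or DESeq2, under which 65.2% and 96.6% of all calls were higher against 2.9% without. The count fell to 2 without single-stained replicate 1 and to 9 without replicate 2. Without replicate 2 none of the 3 was called (-3.22, -2.21 and -1.96; edgeR adjusted p = 0.239, 0.234 and 0.0974), and without replicate 1 the Smad7 bin was not (-2.53, adjusted p = 0.125).

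The rest of the pathway was read from gene lists at the start with the most counts, in H3K4me3 against CTCF from 10000 cells and H3K27ac against Pol2S2P from 1000 cells. The first comparison takes its direction largely from the genome-wide shift of 1.92, so its counts are given with TMM and DESeq2 as well. Of 14 ligands 7 were tested. In H3K4me3 6 of them were higher and 1 was lower, and the list's median was 1.88, but both scalings left 0 higher and 3 lower. Tgfb2 (2.19 ± 0.155, SE), Gdf11 (2.15 ± 0.216), the close relative of myostatin, and Inhbb (1.92 ± 0.255) led, and Gdf5 was lower (-1.06 ± 0.326), as it was with both scalings (-2.95 and -2.98). Of 13 receptors 9 were tested and 8 were higher (median 2.28), and 5 with TMM and 4 with DESeq2, which put 2 and 1 lower. They were led by the BMP receptors Bmpr2 (3.09 ± 0.161) and Bmpr1a (3.02 ± 0.174) and by Acvr2a (2.80 ± 0.201), a type 2 activin receptor, and all 3 kept their calls with both scalings (Bmpr2 at 1.19, Bmpr1a at 1.12 and 1.10, Acvr2a at 0.90 and 0.89). All 6 receptor-regulated and common Smads were higher (median 2.27), with Smad4, the shared partner, at 2.59 ± 0.229, Smad2 at 2.36 ± 0.247 and Smad5 at 2.36 ± 0.223. Of these only Smad4 was called with TMM (0.69) and none with DESeq2. In H3K27ac against Pol2S2P 1 of 5 ligands tested was higher, the activin subunit gene Inhba (1.90 ± 0.302), 1 of 4 receptors, Tgfbr2 (1.01 ± 0.326), and 0 of 2 Smads. TMM kept both calls and DESeq2 that of Inhba.

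Inhibitors and ligand-binding proteins of the pathway other than Smad6 and Smad7 were split by the scaling. Of 10 extracellular and membrane inhibitors and binding proteins 7 were tested. In H3K4me3 5 were higher and 1 was lower (median 1.19), against 2 higher and 4 lower with TMM and 2 and 3 with DESeq2. Ltbp1, which binds latent TGF-beta, had 2.64 ± 0.135 (SE), Fstl1 2.39 ± 0.133 and the BMP antagonist Grem1 1.75 ± 0.254, while Nog, another BMP antagonist, was lower (-0.82 ± 0.290). Ltbp1 and Fstl1 stayed higher with both scalings, and Grem1 turned to -0.15 and -0.18 without a call. All 4 tested of this list were higher in H3K27ac than in Pol2S2P, among them Grem1 (1.37 ± 0.312), Ltbp1 (1.16 ± 0.236) and Fstl1 (0.60 ± 0.194), and so were all 4 with TMM and 2, Grem1 and Ltbp1, with DESeq2. All 7 intracellular inhibitors were higher in H3K4me3 (median 2.39), led by Skil (2.94 ± 0.170), Tgif1 (2.79 ± 0.128) and the ubiquitin ligase gene Smurf2 (2.65 ± 0.179). With TMM 4 were higher and 2 lower and with DESeq2 3 and 0, and these 3 genes were called in both. The Smad6 difference of 1.40 lay below the median of this list. In H3K27ac against Pol2S2P 1 of 5 was higher, Tgif1 (1.11 ± 0.250), with either scaling too.

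Among the partners of Id proteins, 6 of 7 were tested and 5 were higher in H3K4me3 (median 1.98), and 2, Tcf12 and Myf5, with TMM and DESeq2. The E protein gene Tcf12 had 3.23 ± 0.284 (SE), the myogenic factor Myf5 3.11 ± 0.171 and the E protein gene Tcf4 2.25 ± 0.243. Myod1 was lower (-2.39 ± 0.369, and -4.27 with TMM and -4.34 with DESeq2), with more CTCF than H3K4me3 at the end tested, which need not be its promoter. Myf6 (1.31 ± 0.375) and Myf5 (1.19 ± 0.316) were higher in H3K27ac than in Pol2S2P, 2 of 4 tested, and DESeq2 kept Myf5 alone. Of the 9 pathway targets in the reference 7 were tested, 4 were higher in H3K4me3 and 1 was lower (median 1.17), but with either scaling 1, Fn1, was higher and 4 were lower. Fn1 had 2.78 ± 0.158 (SE), Msx1 2.36 ± 0.278 and Ccn2 2.06 ± 0.135, and Hey1 was lower (-1.37 ± 0.346). In H3K27ac against Pol2S2P 3 of 4 were higher, among them Fn1 (1.59 ± 0.290) and Ccn2 (0.72 ± 0.220), against 2 with TMM and 1, Fn1, with DESeq2. These lists hold no gene of the 7, and their counts stand beside 83.7% and 12.6% of all starts.

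One protein-coding neighbour came within a window: Cox4i2, 16506 bases above Id1, whose span begins inside the upper flank. The other windows held no other protein-coding gene, but noncoding RNA genes overlap or adjoin several, among them A330033J07Rik across the start of Id4 and Gm20544 just below Smad7, so that counts there cannot be assigned to 1 gene.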

How the data were processed

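The authors deposited raw counts per 1 kb bin of GRCm38, and no normalized values were used. The submitters' processing notes name bcl2fastq, HISAT2 2.1.0 and deepTools 3.3.1. Of 34 labelled samples 28 matched a column of the deposited count table by title, 6 are not analysed here, and 4 columns matched no label and were not used. Counts were read over autosomes and X after removal of 9 bins that exceeded 50 times the mean bin in all groups, which left 2631630 bins and 719766 to 6653298 counts per library, and library size was that total with no further scaling. Features were single bins, starts (bins within 1 kb) and gene windows (20 kb flanks). Each comparison was fitted on all features of its own libraries with edgeR 4.0.16 (quasi-likelihood test, filterByExpr, Benjamini-Hochberg adjustment, threshold 0.05) in R 4.3.3; SE is the log2 difference over the root of F. The fits recovered known changes in simulated counts when tested, which is a check of the code only. No conclusion on the choice of scaling or on features with few counts is drawn from the simulation. Alternatives were TMM, DESeq2 1.42.0, looser filters, bins within 2.5 kb, 5 kb flanks, a replicate block and leaving out each library. Bin fits of dual against single staining were added after seeing the data.

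The members and gene lists were chosen with earlier results of these data known. Genes named from a list are at most 3 called per direction with the largest difference and groups that do not overlap, each at the start with the most counts. Replicates of H3K4me3 from 10000 cells differed by about counting noise (chi-square per degree of freedom 1.00 to 1.03 in all 3 pairs, against 1.05 to 1.72 in other groups) and were kept as 3, so their spread may be technical. Counts near 0 limit Id4 and Mstn.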

Additional observations from a re-analysis of the deposited data

How the results depend on the processing

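Scaling changed the most. With TMM the counts of member calls became 10 (bins, H3K4me3 against CTCF, 1000 cells), 1 (bins, H3K27ac against Pol2S2P, 1000 cells), 0 (bins and starts, H3K27ac against Pol2S2P, 100 cells) and 0 (starts and bins, Pol2S2P dual against single staining). With DESeq2 they became 25 (bins) and 3 (starts) in H3K4me3 against CTCF from 10000 cells and 3 (bins) from 1000 cells. In H3K27ac against Pol2S2P DESeq2 gave 1 (bins) and 2 (starts) from 1000 cells and 0 and 0 from 100 cells, and it gave 0 for starts in H3K4me3 between cell numbers and 0 and 0 for Pol2S2P stainings. The sign reversed at Smad6 (10000 cells: -0.50 with TMM, -0.52 with DESeq2; 1000 cells: -1.36 and -1.40), at Id2 from 1000 cells (-0.01 and -0.03) and in the Smad7 bin at 7.83 kb from 100 cells (-0.03 with TMM). It also reversed in 2 uncalled windows, Mstn in H3K27ac against Pol2S2P from 1000 cells (0.13 with TMM, 0.11 with DESeq2, 0.00 with 5 kb flanks) and Smad6 in H3K4me3 against CTCF from 10000 cells (0.04 with 5 kb flanks, -0.12 to 0.02 without 1 library). These scalings remove the median difference over all features, and no other cause was tested.

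Looser filters gave 0 bins and 1 start (H3K27ac against Pol2S2P, 100 cells), 3 starts (1000 cells) and 9 bins (Pol2S2P stainings). Bins within 2.5 kb gave 2 starts in H3K4me3 between cell numbers, and 5 kb flanks 2 windows (H3K27ac against Pol2S2P, 100 cells). Leaving out 1 library gave 11 to 22 bins, 2 to 4 starts and 4 to 5 windows in H3K27ac against Pol2S2P from 1000 cells, 0 to 2 bins, 0 to 2 starts and 2 to 4 windows from 100 cells, 0 to 1 start in H3K4me3 between cell numbers, and 2 to 14 bins and 4 to 7 starts in Pol2S2P stainings. In H3K4me3 against CTCF it gave 31 to 45 bins, 6 starts and 5 to 6 windows from 10000 cells and 22 to 25 bins, 5 to 6 starts and 5 to 6 windows from 1000 cells.

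Same-numbered libraries of 2 targets correlated at only 0.041 to 0.089 after removing group means, though each was nearest its own number in the 4 target comparisons. Counting noise lowers such values, so they alone do not settle whether the numbers are pairs. The deposited columns name the 2 targets of a dual staining alike, with the same replicate number and a target suffix, so pairs are likely. The main fits nevertheless treated the libraries as unpaired, and only the replicate block takes the numbers into account. The replicate block kept the 22 counts of calls within 1.5 times, with 39 bins and 6 starts in H3K4me3 against CTCF from 10000 cells, and changed 2 of 71 single calls. Both were in H3K27ac against Pol2S2P and were gained: the upper end of Id1 from 1000 cells (0.61, edgeR adjusted p = 0.0349) and the Id1 window from 100 cells (0.42, adjusted p = 0.0401). By bin it added 1 call in Id1 there (13 against 12) and ended 5 in dual against single Pol2S2P, 2 in Id1 and 3 in Smad7 (11 against 16). Depth limits Id4, Mstn and the 100-cell comparisons.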

Other observations

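Beside each of the 7 genes stand the 2 genes whose levels were most like it, by Pearson's r of log2(CPM + 1) at the start over the 10 group means (targets, cell numbers and stainings), a description in which the points share target and library. For Id1 these were Lrp8 (r = 0.992) and Tnfrsf12a (r = 0.991), for Id2 Lrrk2 (0.994) and Washc1 (0.989), and for Id3 Socs5 (0.968) and Rab31 (0.964). Smad6 was nearest to Mmaa (0.997) and Lrch1 (0.992), and Smad7 to Phlda3 (0.995) and Dusp4 (0.994). Id4 (Adam8, 0.895; Trp53inp1, 0.875) and Mstn (Tagln, 0.789; Slc35a2, 0.769) had a mean of 1.00 and 2.36 counts per library at the start, too few for a pattern.

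The highest H3K27ac bin of the Id3 window changed with the number of cells. From 1000 cells it lay upstream of the start at -2.88 kb, at 10.2 ± 2.77 (SD, n = 3), and from 100 cells at -19.88 kb, the edge of the window, at 17.2 ± 13.1 (SD, n = 3), a value with a spread nearly as large as itself. That edge bin was also the highest of the window in dual-stained Pol2S2P from 100 cells (9.60 ± 5.87) and 1000 cells (3.61 ± 2.44).

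Of the 70 bins of the Smad7 window, 2 held 0 counts in every library, and the other 6 windows differed in how many bins were empty: in H3K4me3 from 1000 cells 37 of 46 bins of Id4 held 0 counts against 9 of 43 of Id1.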
